A study of Mus musculus with 18 samples.

Results

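Cortical endothelial cells from the side of the brain injured by middle cerebral artery occlusion were compared with those from the opposite side. MCAO, the surgical blocking of the middle cerebral artery, is a mouse model of ischaemic stroke. The comparison used 6 of the 18 libraries of the series, chosen by their titles: 3 from the ipsilateral, injured cortex and 3 from the contralateral cortex, replicates 1 to 3 on each side. All 6 came from mice labelled as wild type (WT) that had been given tamoxifen at 75 mg per kg. The 6 sham libraries used beside them, 3 from each side, carried the same genotype and tamoxifen labels, and no mouse in these 12 libraries was labelled as carrying a deleted gene. The design text describes 5 daily doses for the mice in which Hdac2 or Ezh2 was deleted, whose libraries were left out of the comparison. Cells were taken on day 7 and sorted for CD31 and against CD41 and CD45, which selects endothelium and removes platelets and leukocytes. The labels give no strain, age, sex or batch, and do not say whether each replicate was a separate mouse or whether equal numbers on the 2 sides came from the same mouse. The p-values therefore measure the spread between these libraries only, which may be technical.

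Endothelial cells of the brain form the blood-brain barrier, with tight junctions between cells, few transport vesicles, and dedicated nutrient carriers and efflux pumps. Wnt ligands acting through Fzd4 and beta-catenin maintain this state. After a stroke the vessels in and around the infarct can leak, express adhesion molecules for leukocytes and sprout new branches under VEGF, while the opposite hemisphere keeps its blood supply and serves as a comparison.

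A single gene, Scgb3a1, passed the test between the 2 sides, and it was higher on the injured side. It encodes a small secreted protein of the secretoglobin family, best known from airway epithelium. No barrier, Wnt, Notch, VEGF, adhesion, interferon, matrix or cell cycle gene passed with edgeR. Of the genes in the lists described below, DESeq2, used as an alternative, also called the matrix gene Adamts5 and the immediate early gene Atf3. Without contralateral replicate 1, DESeq2 added Cdc20 and Cxcl9 from these lists, among other genes outside them. The immediate early and arterial genes leaned lower on the injured side without passing with edgeR, with medians below 0 whichever MCAO library was left out. In sham mice the arterial median was below 0 too (-0.17), while the immediate early median was 0.28. The interferon, acute phase and cell cycle genes leaned higher, but the size of these medians depended on single libraries. With 1 MCAO library left out, the interferon and acute phase medians ranged from 0.09 to 0.70 and from 0.13 to 0.41. The cell cycle median was -0.07 without ipsilateral replicate 3.

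Levels are given in CPM, the count of a gene scaled to 1000000 counts of its library, where the library total is that over the tested genes after TMM adjustment (a scaling that assumes most genes do not differ). The 6 libraries held between 25791401 and 57576255 counts, and 15428 to 20940 genes above 0. Contralateral replicate 1 stood apart: it was the library with the fewest counts and the most genes above 0, and 1466 olfactory and vomeronasal receptor genes, which endothelium is not known to use, took 1889 of each 1000000 counts in it. The same genes took 151.8 to 296.5 on that scale in the other 5 MCAO libraries and 207.3 to 716.3 in the sham libraries. The results that follow are therefore given with this library and, for the genes and lists that leaned to a side, also without it. Without it the contralateral group has 2 libraries, and their spread is assumed to be like that of the other groups.

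The sorted cells carried the markers of endothelium. The summed level of 12 endothelial markers, among them Pecam1, Cdh5, Tek, Erg, Cldn5 and Flt1, ranged from 16700 to 27000 CPM in the ipsilateral libraries and from 12400 to 25600 CPM in the contralateral libraries. The lowest of these was contralateral replicate 1, and the other 2 lay between 20700 and 25600 CPM. Ptprc, the gene of the CD45 protein used to remove leukocytes, stood at 0.32, 0.32 and 0.81 CPM in ipsilateral replicates 1 to 3 and at 4.73, 0.53 and 0.13 CPM in contralateral replicates 1 to 3. Apart from the red cell genes given below, other cell types left smaller sums. The 15 microglia and macrophage markers summed to 95.6 to 125 CPM on the injured side and 68.3 to 99.7 CPM on the opposite side, and the 12 pericyte and smooth muscle markers to 45.5 to 114 CPM against 19.6 to 73.5 CPM. The 8 fibroblast markers summed to 8.32 to 16.8 CPM against 1.59 to 11 CPM. Without contralateral replicate 1 the contralateral sums of these 3 lists were 78.8 to 99.7, 58.5 to 73.5 and 1.59 to 5.41 CPM. The 11 neutrophil and lymphocyte markers gave 10.6 to 14.8 CPM against 8.34 to 13.4 CPM, the 8 astrocyte markers 56.1 to 82.5 CPM against 45.1 to 59.4 CPM, and the 6 platelet markers 36.5 to 39.5 CPM against 21.8 to 78.3 CPM.

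Markers of oligodendrocytes and neurons ran the other way. The 10 oligodendrocyte lineage markers summed to 34.2 to 64.5 CPM on the injured side and 60.7 to 226 CPM on the opposite side, with or without contralateral replicate 1. The 9 neuron markers, of which Stmn2 made up most of the sum, gave 131 to 199 CPM against 202 to 297 CPM, or 263 to 297 CPM without that library, with no overlap. Globin and other red cell genes were abundant in every library, 38300 to 67400 CPM ipsilaterally and 41200 to 162000 CPM contralaterally (51400 to 162000 CPM without replicate 1). A two-sided exact permutation test on 3 against 3 libraries cannot give a p below 0.1, and of the 10 marker lists the neuron markers alone reached that value, with an adjusted p of 0.5 over the 10 lists. No marker was at 0 in all 6 libraries. In these bulk libraries a lower level of a gene can come from fewer cells of a type or from less RNA per cell, which cannot be told apart.

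**Figure D1:**
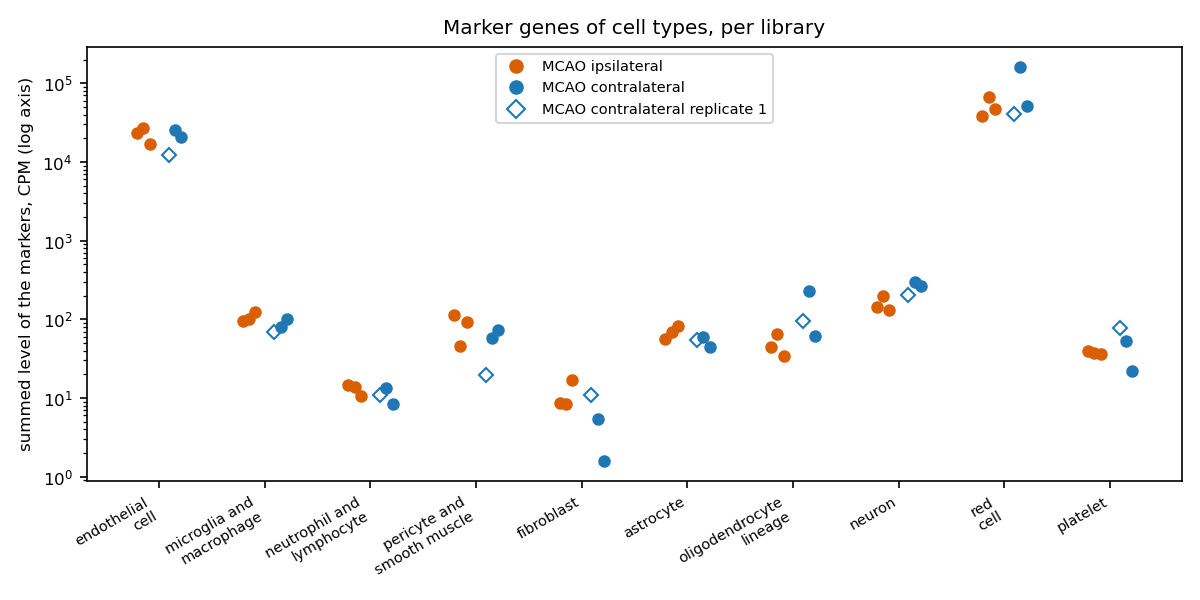
Summed CPM of the marker genes of 10 cell types (log axis) in each MCAO library; each point is 1 library and the open diamond is contralateral replicate 1. Endothelial sums lie between 12400 and 27000 CPM, red cell sums between 38300 and 162000 CPM, and the neuron sums of the sides do not overlap (131 to 199 against 202 to 297 CPM).

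The stretch of genome just upstream of Scgb3a1 is shown because this was the gene that passed, and that of Atf3 because it had the smallest p of the immediate early genes, with a direction opposite to Scgb3a1. Each is 250 bases long, taken from RefSeq on build GRCm38.p6 and written in the direction of the gene. The Scgb3a1 stretch is chr11:49663345-49663594 on the plus strand and ends just before the RefSeq start. The Atf3 stretch is chr1:191183334-191183583 on the minus strand. A longer Atf3 transcript in GENCODE M21 starts further upstream, so this stretch lies within an intron of it, and its last bases overlap the first exon of the shorter transcript.
Scgb3a1: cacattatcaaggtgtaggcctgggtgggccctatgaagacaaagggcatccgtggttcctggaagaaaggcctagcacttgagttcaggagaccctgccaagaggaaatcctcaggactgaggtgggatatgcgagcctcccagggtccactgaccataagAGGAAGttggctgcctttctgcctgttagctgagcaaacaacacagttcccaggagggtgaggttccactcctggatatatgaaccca
Atf3: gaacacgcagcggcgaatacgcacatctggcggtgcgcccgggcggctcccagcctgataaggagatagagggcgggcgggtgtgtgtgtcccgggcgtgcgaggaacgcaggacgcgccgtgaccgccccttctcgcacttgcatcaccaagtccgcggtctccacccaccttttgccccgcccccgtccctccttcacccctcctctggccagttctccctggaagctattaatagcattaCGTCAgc
Capitals mark matches to short motifs, searched on both strands and chosen after the letters had been read. In Scgb3a1 the capitals are the letters AGGAAG, the core bound by ETS factors, at bases 163 to 168, and 29.5% of 32851 upstream windows of the same length hold this motif. In Atf3 they are CGTCA, the reverse complement of TGACG, at bases 244 to 248, part of the element bound by CREB and ATF factors, which 17.8% of windows hold. The TATA motif TATANA, found in 22.6% of windows, had no match in either. A match is a string of letters, and binding was not measured here.

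Scgb3a1 lies at chr11:49663610-49665118 on the plus strand. Its level was 758, 484 and 855 CPM in ipsilateral replicates 1, 2 and 3 and 74.1, 126 and 107 CPM in contralateral replicates 1, 2 and 3. Every ipsilateral library lay far above every contralateral library, of which replicate 1 was the lowest. The mean was 699 ± 192 CPM (SD, n = 3) against 102 ± 26.1 CPM (SD, n = 3). The log2 fold change, ipsilateral over contralateral, was 2.77 with a standard error (SE) of 0.31, which is 6.84-fold, and the adjusted p was 0.00586 by edgeR's quasi-likelihood test with Benjamini-Hochberg adjustment over 15505 genes. Without contralateral replicate 1 it was 2.59 (SE 0.31) with an adjusted p of 0.0106.

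Sham mice did not show this gap for Scgb3a1. The sham ipsilateral libraries held 24.0, 25.8 and 32.9 CPM and the sham contralateral libraries 31.1, 39.9 and 39.5 CPM. The injured side was thus above all 9 other libraries, and the contralateral side of MCAO mice also lay above all 6 sham libraries. In sham mice the log2 fold change between the sides was -0.42 (SE 0.29, adjusted p = 1.00), and the difference between the MCAO and sham side differences was 3.19 (SE 0.43, adjusted p = 0.0412). This last call held without MCAO ipsilateral replicate 2 (adjusted p = 0.0182) or MCAO contralateral replicate 1 (adjusted p = 0.0299) and was lost without any 1 of the other 10 libraries (adjusted p from 0.0741 to 0.305). The call between the sides of MCAO mice was lost in 4 alternatives: the adjusted p was 0.53 with the 6 MCAO libraries alone, 1 with all 18 libraries, 0.0794 with the replicate number as a block and 0.0622 without contralateral replicate 3. Over all alternatives the log2 fold change stayed between 2.59 and 3.00, and the adjusted p ranged from 3.54e-13 to 1.

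The single call is 0.00645% of the 15505 genes tested, and 0.00681% of 14685 without contralateral replicate 1. An unadjusted p under 0.05 was reached by 548 genes (3.53%), against 775 expected by chance alone. Of these, 143 were higher on the injured side (0.922% of the genes tested) and 405 lower (2.61%). Without contralateral replicate 1 that balance turned over: of 613 such genes (4.17%), 444 were higher (3.02%) and 169 lower (1.15%). The 3 ipsilateral libraries all lay above or all below the 3 contralateral libraries for 882 genes (5.69%), 547 of them higher on the injured side (3.53%) and 335 lower (2.16%). Against contralateral replicates 2 and 3 alone, 2926 genes (18.9%) showed no overlap. By chance alone a share of 0.1 of genes would show no overlap with 3 against 3 libraries, and a larger share with 3 against 2. No overlap and an unadjusted p under 0.05 are therefore used below to choose genes to describe, not as calls. Between the sides of sham mice no gene passed with edgeR, 535 (3.45%) had an unadjusted p under 0.05, 1 passed with DESeq2, and 2491 (16.1%) showed no overlap. DESeq2 called 12 genes between the sides of MCAO mice (0.0774%). The genes described from here on did not pass with edgeR: after Scgb3a1 the next smallest adjusted p was 0.974, and 0.573 without contralateral replicate 1.

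**Figure D2:**
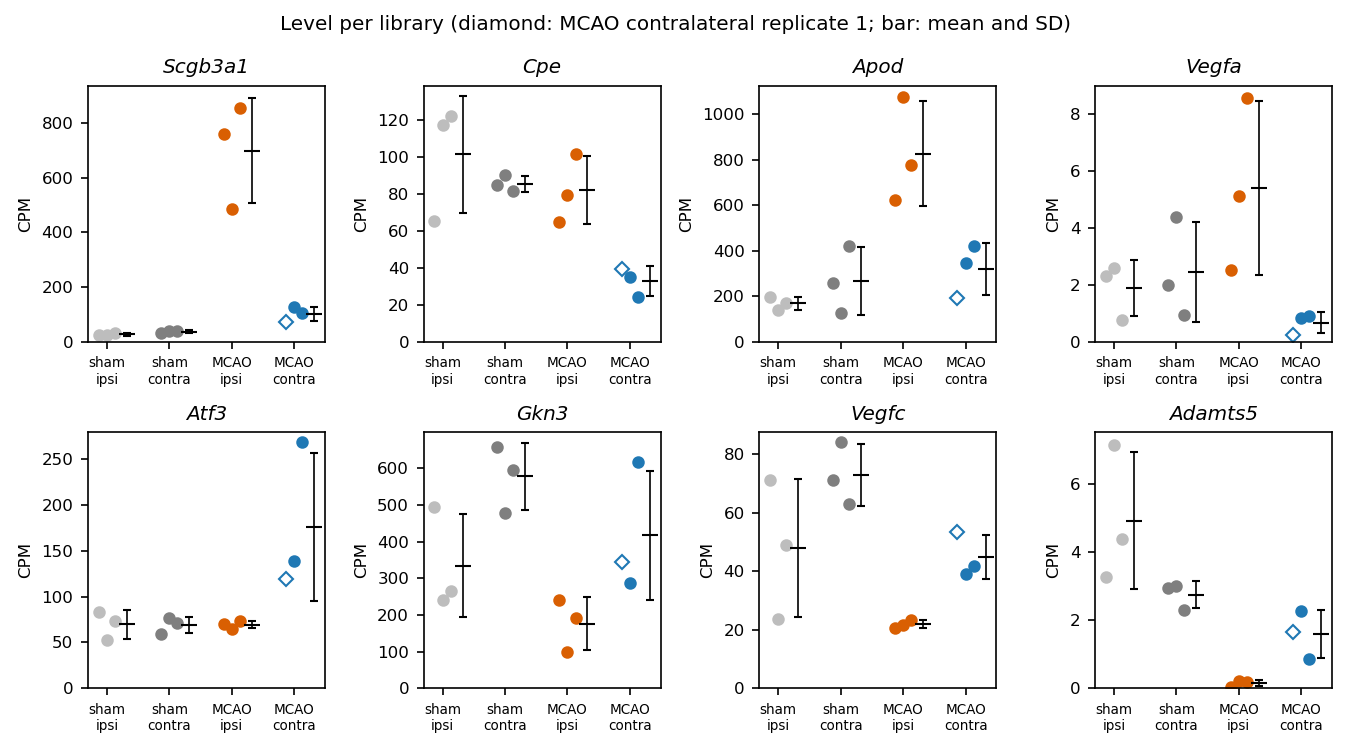
CPM in each of the 12 WT libraries for 8 genes, with the group mean and SD beside the points; the open diamond is MCAO contralateral replicate 1. Scgb3a1 is at 484 to 855 CPM in the injured side and at most 126 CPM elsewhere, and Cpe, Apod and Vegfa (ipsilateral above) and Atf3, Gkn3, Vegfc and Adamts5 (ipsilateral below) show no overlap between the sides of MCAO mice.

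Among the 7857 well expressed genes (a mean of at least 10 CPM over the 6 libraries), 218 were without overlap and higher on the injured side and 166 lower. Together these were below the share of 0.1 that chance alone would give. The higher gene with the smallest p after Scgb3a1 was Cpe, carboxypeptidase E, which trims peptide hormones. Its level was 65.1, 79.7 and 102 CPM in the ipsilateral libraries and 39.5, 35.1 and 24.1 CPM in the contralateral libraries. The log2 fold change of Cpe was 1.32 (SE 0.32), and 1.48 without contralateral replicate 1. In sham mice Cpe stood at 65.2 to 122 CPM on both sides, so the contralateral MCAO libraries were the low ones.

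Apod, apolipoprotein D, a lipid carrier of the lipocalin family, stood at 623, 1077 and 779 CPM on the injured side and at 194, 346 and 419 CPM on the opposite side. Its log2 fold change was 1.37 (SE 0.41), and 1.11 without contralateral replicate 1. The sham libraries ranged from 125 to 422 CPM for Apod, so all 3 libraries of the injured side were above the other 9, and the difference from the sham side difference was 2.04 (adjusted p = 0.882).

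Rgs5, a regulator of G-protein signalling and a pericyte marker, was measured at 36.7, 18.3 and 49.8 CPM against 4.59, 15.6 and 12.5 CPM. This was a log2 fold change of 1.68 (SE 0.48), and 1.32 without contralateral replicate 1. The sham libraries held 36.8 to 87.6 CPM of Rgs5, above every contralateral MCAO library, and the ipsilateral MCAO libraries lay within or below that range. The other 11 pericyte and smooth muscle markers gave no value with a p under 0.05, and 6 of them were higher. Without contralateral replicate 1, 2 of the 12 markers, Rgs5 among them, had an unadjusted p under 0.05, each higher, and 7 of the 12 were higher. Beside the values of Rgs5 stands the summed pericyte level given above, which overlapped between the sides. The part of that level in Rgs5 was not tested. The remaining higher genes of the 10 were Atad2b, Zcchc8, Rpgrip1, Cse1l, Cdan1 and Mrps5, with log2 fold changes from 0.85 for Cdan1 to 1.20 for Rpgrip1. Without contralateral replicate 1 their values were 0.98, 0.95, 1.33, 0.76, 0.69 and 0.73, in the order named. Rpgrip1 had a like value in sham mice, 0.96. Cdan1 shares its locus with Ttbk2 on the same strand and Stard9 on the other, Cse1l with a predicted gene on the same strand and Rpgrip1 with Supt16, and since the strand setting of the counting is not given, reads of such pairs cannot be told apart.

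Of the lower genes, Ptgds is known from other cells. Ptgds, prostaglandin D synthase, a product of the meninges and oligodendrocytes, stood at 0.73, 0 and 0.33 CPM on the injured side and at 11.6, 152 and 15.8 CPM on the opposite side. The sides did not overlap, but contralateral replicate 2 was well above the rest. The log2 fold change of Ptgds was -7.38 (SE 1.77), and -7.87 without contralateral replicate 1. Of the 7 oligodendrocyte markers tested 5 were lower, among them Mbp and Mag with a p under 0.05, and the summed level moved with them as given above; its part in Ptgds was not tested.

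Cytl1, a small secreted cytokine-like protein, was lower in every ipsilateral library, at 12.0, 5.82 and 4.81 CPM against 48.4, 21.6 and 19.6 CPM. The log2 fold change of Cytl1 was -1.98 (SE 0.49), and -1.45 without contralateral replicate 1. The sham libraries held 5.44 to 12.7 CPM of Cytl1, so the contralateral MCAO libraries were the high ones. Mylk, myosin light chain kinase, gave 17.1, 7.78 and 9.52 CPM against 40.4, 30.6 and 17.6 CPM, a log2 fold change of -1.36 (SE 0.40), or -1.07 without contralateral replicate 1, and antisense genes overlap it. Abcb10, Nin, Gxylt1, Fam181b and Rpp14 were highest in contralateral replicate 1, and their log2 fold changes of -1.89, -1.49, -1.62, -1.68 and -1.20 became -0.90, -0.68, -0.45, -0.73 and -0.68 without it.

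The gene lists follow by role. Each is described by how many of its tested members were higher or lower on the injured side and by their median log2 fold change. Over all tested genes 47.5% were higher and 52.5% lower with 6 libraries, 53.1% were higher and 46.9% lower without contralateral replicate 1, and the median was -0.03 and 0.03. DESeq2-type size factors in place of TMM moved the median of all genes to -0.15, so list medians are best read against the median of all genes under the same scaling.

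**Figure D3:**
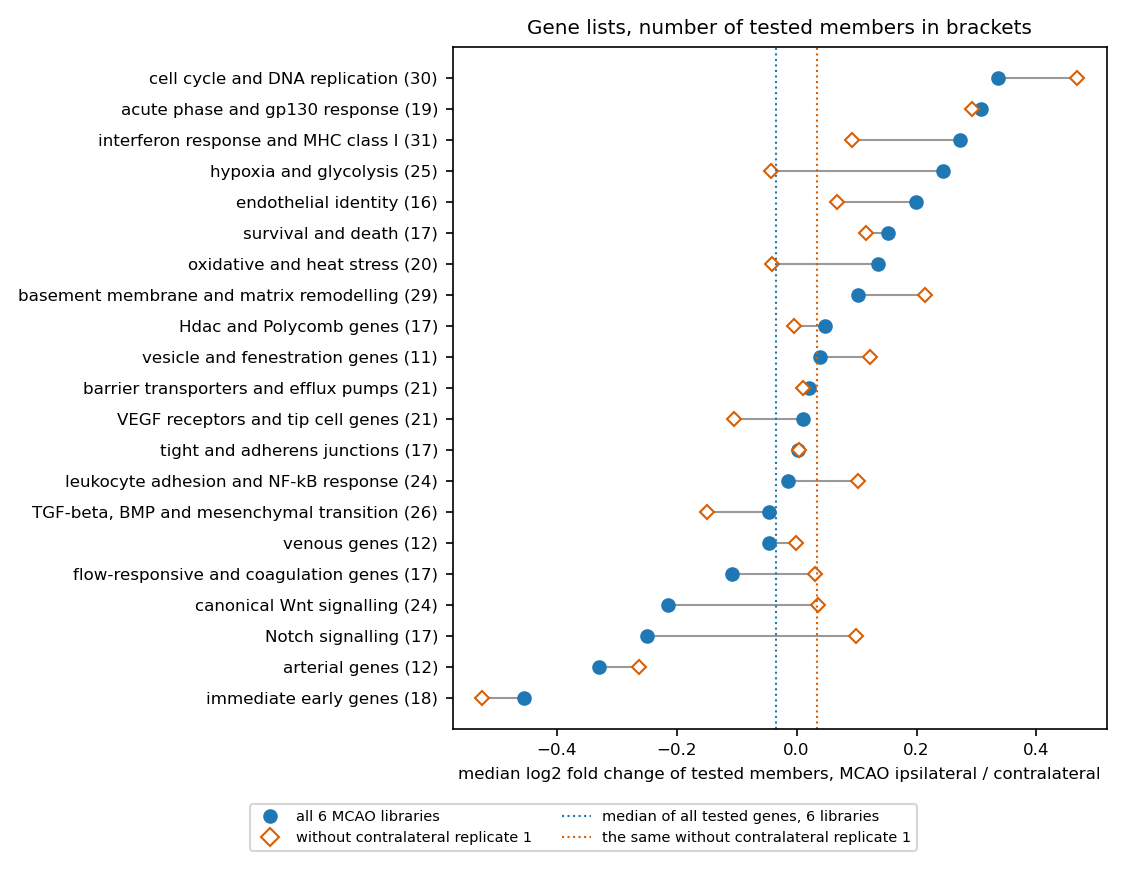
Median log2 fold change (ipsilateral over contralateral) of the tested members of 21 gene lists, with all 6 MCAO libraries (filled) and without contralateral replicate 1 (open); dotted lines give the medians of all tested genes. The immediate early and arterial genes lie lowest in both (-0.46 and -0.33, then -0.52 and -0.26), while the Notch median moves from -0.25 to 0.10 and the hypoxia median from 0.24 to -0.04 when that library is left out.

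Immediate early genes code for transcription factors and feedback regulators that cells switch on within minutes of a stimulus. Of 18 tested, 15 were lower on the injured side, with a median of -0.46, and 16 without contralateral replicate 1, with a median of -0.52. With each of the other MCAO libraries left out in turn the median ranged from -0.26 to -0.90, the lowest without ipsilateral replicate 3. In sham mice 13 of them were higher on the ipsilateral side, where 54.9% of all genes were, with a median of 0.28. Atf3, a stress-induced factor of the ATF family at chr1:191170296-191218039, stood at 69.7, 65.0 and 73.2 CPM ipsilaterally and at 119, 139 and 268 CPM contralaterally. All 3 contralateral libraries were above all 3 ipsilateral libraries, and also above the 6 sham libraries, which held 52.8 to 83.0 CPM. The log2 fold change of Atf3 was -1.34 (SE 0.33), and -1.55 without contralateral replicate 1.

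Nr4a1 and Nr4a2 encode orphan nuclear receptors of the same family. Nr4a1 stood at 46.5, 47.4 and 50.6 CPM against 116, 66.4 and 73.5 CPM, with no overlap and a log2 fold change of -0.83 (SE 0.32). It was -0.54 without contralateral replicate 1, the library with the highest level. Nr4a2 stood at 40.3, 27.1 and 47.7 CPM against 133, 45.4 and 64.2 CPM, and its log2 fold change of -1.08 (SE 0.38) became -0.51. Fos stood at 400, 409 and 897 CPM against 891, 492 and 946 CPM, so the sides overlapped, and the value was -0.45 (SE 0.40). Egr1, Fosb, Jun and Btg2 also had ipsilateral replicate 3 as the high library of its side, at 196, 174, 149 and 259 CPM against at most 66.4, 82.2, 68.1 and 76.7 CPM in the other 2. Junb, Jund and Zfp36 were instead lowest in contralateral replicate 1, at 55.4, 14.9 and 47.6 CPM, and had log2 fold changes near 0 with it and -0.42, -0.41 and -0.47 without it.

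**Figure D4:**
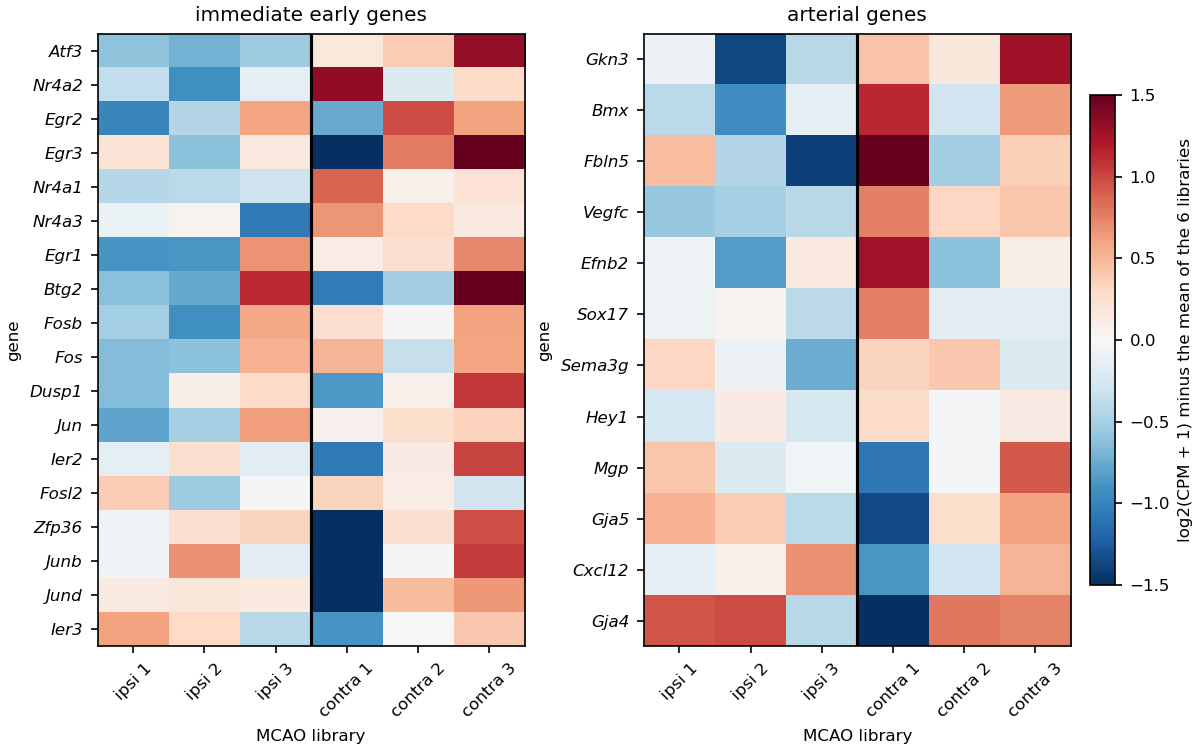
Tested immediate early genes (18, left) and arterial genes (12, right) in the 6 MCAO libraries, ordered by log2 fold change; colour is log2(CPM + 1) minus the mean of the gene over the 6 libraries. Atf3, Nr4a1 and Vegfc are blue in all 3 ipsilateral and red in all 3 contralateral columns, while Junb, Jund, Zfp36 and Gja4 are set apart by contralateral replicate 1.

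Of 12 arterial genes 9 were lower on the injured side, both with and without contralateral replicate 1, with medians of -0.33 and -0.26, and with a median of -0.52 without contralateral replicate 3. An unadjusted p under 0.05 was reached by 3 of them, all lower, against 2.61% of all genes. In sham mice 4 of the 12 arterial genes were higher on the ipsilateral side, where 54.9% of all genes were, with a median of -0.17. Gkn3, a secreted marker of arterial endothelium in the mouse brain, stood at 240, 98.6 and 191 CPM against 345, 288 and 618 CPM. Its log2 fold change was -1.24 (SE 0.40), and -1.36 without contralateral replicate 1. Gkn3 was also lower on the ipsilateral side of sham mice, by a log2 fold change of -0.79, and the difference between the side differences was -0.45.

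Vegfc, the ligand of the receptor Flt4, stood at 20.7, 21.8 and 23.2 CPM against 53.4, 39.0 and 41.9 CPM. The ipsilateral values were close together and all below the contralateral ones. Vegfc had a log2 fold change of -1.03 (SE 0.36), -0.88 without contralateral replicate 1, and -0.60 in sham mice. Bmx, an arterial kinase, stood at 35.0, 24.1 and 42.0 CPM against 104, 38.2 and 73.6 CPM, so the sides overlapped, and its value was -1.09 (SE 0.37), or -0.73 without contralateral replicate 1. Efnb2, the arterial ephrin, went from -0.67 to 0.02 when contralateral replicate 1 was left out. Venous genes were split, 6 of 12 higher, with a median of -0.05. The venous chemokine receptor Ackr1 stood at 58.1, 50.8 and 52.0 CPM against 0.35, 23.1 and 31.0 CPM, with a log2 fold change of 1.56 (SE 1.10), or 0.99 without contralateral replicate 1, and it shares its locus with Cadm3 on the same strand. The sham libraries held 0.335 to 8.16 CPM of Ackr1, below every MCAO library of either side except contralateral replicate 1.

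Of the genes of vessel growth, Vegfa and Vegfc had an unadjusted p under 0.05. Vegfa, the main ligand for sprouting, was low in all libraries but did not overlap between the sides of MCAO mice, at 2.51, 5.14 and 8.57 CPM against 0.24, 0.84 and 0.92 CPM. Its log2 fold change was 3.00 (SE 0.86), and 2.61 without contralateral replicate 1. The sham libraries held 0.76 to 4.39 CPM of Vegfa, a range that overlapped both sides of MCAO mice. The receptors Kdr and Flt1 had log2 fold changes of -0.15 (SE 0.35) and 0.02 (SE 0.25). The tip cell genes Apln, Esm1 and Angpt2 gave 1.57 (SE 1.09), 0.38 (SE 1.52) and -0.16 (SE 0.44). Leaving out contralateral replicate 1 gave -0.05 for Flt1, -0.11 for Esm1 and -0.01 for Angpt2. Of the 21 genes in this list 12 were higher, and 8 without contralateral replicate 1, and the median of 0.01 was -0.10 under DESeq2-type size factors. The hypoxia and glycolysis genes were higher for 20 of 25 with a median of 0.24, but for 10 of 25 with a median of -0.04 without contralateral replicate 1, and the median was -0.03 without ipsilateral replicate 2.

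No barrier gene passed the test, and most of their differences were smaller than their errors. Cldn5, the main claudin of brain tight junctions, stood at 1376, 2441 and 1347 CPM against 286, 1978 and 1871 CPM. Contralateral replicate 1 was the low library, and the log2 fold change was 0.32 (SE 0.58) with it and -0.16 without it. Occludin (Ocln) gave -0.11 (SE 0.25), the glucose carrier Slc2a1 0.32 (SE 0.33), the lipid carrier Mfsd2a 0.13 (SE 0.27) and the efflux pump Abcb1a 0.00 (SE 0.25). These 4 were -0.03, 0.22, -0.04 and 0.04 without contralateral replicate 1. Plvap, the diaphragm protein of leaky vessels, was at 3.37, 0.14 and 0.86 CPM against 0.28, 7.45 and 0.30 CPM, with no ordering of the sides. Of 17 junction genes 10 were higher, of 21 transporters and pumps 12, and of 11 vesicle and fenestration genes 6, with medians of 0.00, 0.02 and 0.04. Those 3 medians turned negative under DESeq2-type size factors, at -0.12, -0.07 and -0.15, as did that of all genes.

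Among the transporters, the amino acid carriers Slc7a5 and Slc38a3 did not overlap between the sides. Slc7a5 stood at 273, 325 and 300 CPM against 115, 267 and 202 CPM and had a log2 fold change of 0.62 (SE 0.29), and 0.36 without contralateral replicate 1. Slc38a3 gave 0.56 (SE 0.36) and 0.22. The dynamin Dnm2, which pinches vesicles off membranes, gave 0.73 (SE 0.39) and 0.38. All 3 were lowest in contralateral replicate 1, and the loci of Slc7a5 and Dnm2 overlap genes on the other strand. In sham mice Slc7a5, Slc38a3 and Dnm2 were also higher on the ipsilateral side, by log2 fold changes of 0.34, 0.49 and 0.15. The differences between the side differences were 0.28, 0.07 and 0.58. The sham sides of Slc7a5 did not overlap either, at 222 to 264 CPM against 182 to 219 CPM.

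None of the 24 Wnt and 17 Notch genes of the lists had an unadjusted p under 0.05. The Wnt receptor Fzd4 and the targets Lef1, Apcdd1 and Axin2 had log2 fold changes of 0.42 (SE 0.32), 0.24 (SE 0.42), 0.45 (SE 0.31) and -0.30 (SE 0.37). The 4 values were 0.27, 0.04, 0.29 and 0.03 without contralateral replicate 1. Notum, a secreted Wnt inhibitor, stood at 37.6, 35.9 and 35.9 CPM against 28.2, 27.8 and 24.1 CPM, a gap without overlap but with a log2 fold change of 0.45 (SE 0.26). Without contralateral replicate 1 the value for Notum was 0.49. The sham libraries held 35.5 to 50.1 CPM of Notum, above every contralateral MCAO library. Tcf7l1, a repressor among the TCF factors, gave -0.82 (SE 0.49), and -0.78 without contralateral replicate 1. Of 24 Wnt genes 10 were higher, and 14 of 23 without contralateral replicate 1, and the median moved from -0.21 to 0.04. Among Notch genes, the receptor Notch1 and the target Hes1 gave -0.01 (SE 0.27) and -0.14 (SE 0.30), and the ligand Jag1 -0.78 (SE 0.39), or -0.34 without contralateral replicate 1. Of 17 Notch genes 3 were higher, and 9 without that library, and the median moved from -0.25 to 0.10. The lean of both lists to the opposite side was thus not seen without contralateral replicate 1.

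No adhesion molecule for leukocytes passed the test. Icam1 stood at 25.3, 15.4 and 27.0 CPM against 25.3, 38.0 and 53.3 CPM, a log2 fold change of -0.79 (SE 0.38), and -1.02 without contralateral replicate 1. Vcam1 gave -0.32 (SE 0.30) and Sele -0.40 (SE 1.07). The chemokine Cxcl9 was low, at 5.42, 0.86 and 2.48 CPM against 0.69, 0.04 and 0 CPM, with a log2 fold change of 3.60 (SE 1.61), or 6.87 without contralateral replicate 1. Relb, a subunit of NF-kB, gave 0.93 (SE 0.46), or 0.65 without contralateral replicate 1. Of 24 genes in the list 12 were higher, with a median of -0.02.

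Interferon-induced and MHC class I genes were higher on the injured side for 28 of 31, with a median of 0.27 and no member with a p under 0.05. Without contralateral replicate 1 it was 20 of 31 with a median of 0.09. Irf7, a factor of the interferon response, stood at 66.0, 155 and 60.0 CPM against 37.0, 55.3 and 64.8 CPM, a log2 fold change of 0.84 (SE 0.42), and ipsilateral replicate 2 was the high library. Isg15, a ubiquitin-like protein induced by interferon, gave 0.27 (SE 0.53), and -0.19 without contralateral replicate 1. Acute phase and gp130 genes were higher for 14 of 19, with a median of 0.31, and for 14 of 18, with a median of 0.29, without contralateral replicate 1. The median fell to 0.13 without contralateral replicate 2, 0.16 without ipsilateral replicate 1 and 0.11 over members with a mean of at least 10 CPM, and DESeq2-type size factors left 11 of 19 higher. The libraries of a side differed widely for Serpina3i, at 10.2, 16.5 and 0.10 CPM against 1.73, 1.69 and 0.04 CPM, and for Lrg1, at 54.2, 107 and 21.4 CPM against 0, 24.7 and 44.2 CPM. Lcn2 and Ch25h had log2 fold changes of -0.12 (SE 0.41) and 0.36 (SE 0.53), the latter 0.78 without contralateral replicate 1. Small side differences did not mean sham levels here. Lcn2 stood at 31.9 to 71.6 CPM over both sides of MCAO mice and at 1.38 to 4.66 CPM in the sham libraries. For Ch25h these ranges were 32.2 to 118 CPM and 4.97 to 16.8 CPM. Lrg1 was at most 1.05 CPM in the sham libraries. MCAO against sham was not tested for these genes.

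Cell cycle genes were higher for 20 of 30, with a median of 0.34, and for 21 of 30, with a median of 0.47, without contralateral replicate 1. The median was -0.07 without ipsilateral replicate 3, 0.08 without contralateral replicate 3 and -0.07 over the members with a mean of at least 10 CPM, so the lean was not seen without ipsilateral replicate 3 or among the well expressed members. Many members were near the limit of detection, where 3 counts, which may be fewer than 3 fragments if both reads of a pair were counted, correspond to 0.0628 to 0.104 CPM. Cdc20, an activator of the anaphase-promoting complex, stood at 2.80, 3.55 and 2.29 CPM against 0.76, 0 and 0.09 CPM. Cdc20 had a log2 fold change of 3.39 (SE 1.19), and 5.96 without contralateral replicate 1. The sham libraries held 1.42 to 6.58 CPM of Cdc20, a range that took in the ipsilateral values and lay above the contralateral ones. Elovl1 overlaps Cdc20 on the other strand. The proliferation markers Mki67 and Top2a stood at 0.14 to 1.76 CPM and 1.03 to 5.05 CPM on the injured side and at 0.17 to 2.69 CPM and 0.28 to 3.42 CPM on the opposite side. Ccnd2, a D-type cyclin, ran the other way, at 39.9, 46.5 and 18.2 CPM against 104, 61.7 and 43.1 CPM, and had the other unadjusted p under 0.05 in the list.

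Of 29 basement membrane and matrix genes 18 were higher, with a median of 0.10, and 26 without contralateral replicate 1, with a median of 0.21, while DESeq2-type size factors gave 13 and -0.04, and the median was also below 0 without contralateral replicate 2 (-0.06) or contralateral replicate 3 (-0.08). Adamts5, a protease that cuts proteoglycans such as versican and aggrecan, stood at 0.05, 0.23 and 0.19 CPM on the injured side and at 1.66, 2.26 and 0.86 CPM on the opposite side. The sides did not overlap, and the sham libraries were higher still, at 2.29 to 7.17 CPM. The log2 fold change of Adamts5 was -3.34 (SE 0.79), and -3.31 without contralateral replicate 1. Its difference from the sham side difference was -4.18 (adjusted p = 0.882).

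Nid1, nidogen, which links laminin to collagen IV, stood at 23.1, 29.2 and 43.9 CPM against 1.52, 15.4 and 18.7 CPM. The sham libraries held 30.3 to 69.4 CPM of Nid1, above every contralateral MCAO library. The log2 fold change of Nid1 was 1.43 (SE 0.62), and 0.91 without contralateral replicate 1, so a gap of smaller size was present without that library. The laminin chain Lamb1 gave 2.51 (SE 1.03), or 2.34 without it, led by ipsilateral replicates 2 and 3. The integrin Itgav gave -1.33 (SE 0.59), and 0.03 without contralateral replicate 1. Col4a1 gave 0.10 (SE 0.27), and 0.21 without it.

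The deacetylase Hdac2 and the methyltransferase Ezh2, which were targeted for deletion in other mice of the series, had log2 fold changes of -0.09 (SE 0.31) and -0.74 (SE 0.70). Ezh2 was highest in contralateral replicate 1, at 19.4 CPM against 3.42 to 9.63 CPM in the other 5 libraries, and its value was 0.00 without it, while that of Hdac2 was -0.25. The corepressor Sin3a gave 0.33 (SE 0.30). Of the flow-induced factors, Klf2 gave 0.02 (SE 0.26), or -0.08 without contralateral replicate 1, and Klf4 -0.18 (SE 0.26). The mesenchymal factor Snai2 and the BMP receptor Bmpr2 gave -0.61 (SE 0.41) and -0.51 (SE 0.34), the latter -0.14 without contralateral replicate 1, and the antioxidant gene Srxn1 -0.43 (SE 0.62). Of the 17 Hdac and Polycomb genes 9 were higher, and 8 without contralateral replicate 1, with a median of 0.05 that was -0.05 under DESeq2-type size factors. Of the lists not yet named, 13 of 16 endothelial identity genes were higher with a median of 0.20, or 10 with a median of 0.07 without contralateral replicate 1, and 14 of 20 oxidative and heat stress genes with a median of 0.14, or 8 with a median of -0.04. Of 17 survival and death genes 9 were higher (12 without that library), of 26 TGF-beta, BMP and mesenchymal genes 11 (9 without it), and of 17 flow-responsive and coagulation genes 7 (10 without it).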

How the data were processed

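Per the labels' protocols, RNA of sorted cells was made into libraries with a SMART-Seq v4 PLUS kit and sequenced paired-end (NovaSeq X plus). The authors deposited counts per gene for 21638 genes with the length of each gene in bases; FastQC, cutadapt, STAR, featureCounts, DESeq2 and the build mm10 are named in the submitters' processing notes, with no version or role, and the strand setting and annotation are not given in the sources used here. The deposited table is called normalized, but its values are whole numbers with unequal totals, so they were treated as unscaled counts. Even numbers made up 77.3% to 88.4% of the values between 1 and 20 per library; if both reads of a pair were counted, which was not tested, a count is less than 1 fragment. Of the 21638 rows, 21442 matched a GENCODE M21 symbol, all overlapping that gene, and 21341 had its start as the deposited start plus 1. Coordinates are on GRCm38, counted from 1. Columns of per-sample values without a sample numbered 0.

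Counts were tested with edgeR 4.0.16 in R 4.3.3 (quasi-likelihood F-test, TMM scaling) in 1 fit of 4 group means to the 12 WT libraries, which left 8 residual degrees of freedom. The 15505 genes that reached a count of 10 in 3 or more libraries were tested, and a gene was called at a Benjamini-Hochberg adjusted p under 0.05. The SE is the log2 fold change divided by the square root of F. The common biological coefficient of variation was 0.682. Alternatives used DESeq2 1.42.0, limma 3.58.1 with voom or trend, other scaling, filters and libraries, a replicate block and a background covariate. Counts were also simulated for the 15505 genes, and 200 of them were changed, picked only among genes averaging 10 CPM or more. The MCAO comparison recovered 0% of these changes at log2 size 1, 58% at size 2 and 93% at size 3. False calls numbered 0, 5 and 11. Recovery was not tested for genes of lower level, such as Vegfa, Cdc20, Cxcl9 and Adamts5.

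The samples and gene lists were chosen with earlier results of these data known. Named genes were those called, the 10 higher and 10 lower with the smallest p among genes without overlap and with a mean of at least 10 CPM, up to 2 members without overlap from each list, and a fixed set of barrier, growth, Wnt, adhesion, acute phase and chromatin genes. A few genes under this rule are not reported here. Predicted genes were counted and not named, 13 of those without overlap. Gene lists were described and not tested. Same-numbered libraries of the 2 sides were not treated as pairs, since the labels do not tie them. The correlations of their deviations were 0.289, 0.389 and 0.0261 in MCAO mice and 0.385, 0.361 and -0.129 in sham mice. These values do not settle whether the libraries are pairs, and the fit with the replicate number as a block is given as an alternative.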

Additional observations from a re-analysis of the deposited data

Results flagged for a closer look

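The side difference of Scgb3a1 was larger in MCAO mice than in sham mice by a test of the difference itself: the interaction was 3.19 on the log2 scale (SE 0.43, adjusted p = 0.0412, edgeR's quasi-likelihood test). In MCAO mice all 3 ipsilateral libraries were above all 3 contralateral libraries, and in sham mice the sides overlapped. The adjusted p of this term was the smallest of 15505 genes and lay just under the threshold, and it ranged from 6.28e-08 to 0.941 over the alternatives.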

How the results depend on the processing

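The call of Scgb3a1 between the sides of MCAO mice was kept under DESeq2-type size factors, voom, limma-trend, both other filters and the background covariate. The number called was 12 with DESeq2, 0 with the 6 MCAO libraries alone, 0 with all 18 libraries, and 0 with the replicate block, where 409 genes had an unadjusted p under 0.05. It was 0 or 1 with single libraries left out, 0 without contralateral replicate 3. Without contralateral replicate 1 the 1 call became 27 with DESeq2, 2 with no low-count filter (Scgb3a1 and Ptgds), 0 with the 5 MCAO libraries alone, 0 with all other 17 libraries and 0 with the replicate block, and, with a further library left out, 0 without ipsilateral replicate 1, 0 without contralateral replicate 2 and 2 (Nup107 and Zfp40, not Scgb3a1) without contralateral replicate 3. Between the sides of sham mice 1 gene (Plpp2) was called by DESeq2 and 0 with any single library left out. For the difference between the side differences the 1 call became 7 with DESeq2, 2 with voom, 0 with no low-count filter (adjusted p = 0.0503), 0 with all 18 libraries, 0 with the replicate block (adjusted p = 0.33), and 0 or 1 with single libraries left out: the call held only without MCAO ipsilateral replicate 2 or MCAO contralateral replicate 1. The causes were not tested. Of the 6 MCAO libraries 4 correlated best with the library of their own number, as a hint from the data only.

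Of the genes with an unadjusted p under 0.05, 26.1% were higher on the injured side, 15.8% with DESeq2-type size factors, 72.4% without contralateral replicate 1, 62% with voom, 61.4% with the replicate block, 75.5% with the background covariate and 10.6% with all 18 libraries. Of 336 list medians under other settings 290 stayed within 1 SD, the spread of the median level of a list between the libraries of a side. Of 686 values of the 70 named genes under other settings with all MCAO libraries kept, 647 kept their direction and their side of the threshold and 32 reversed, all in genes that had not passed. On the log2 scale these were as follows. Voom with sample weights gave -0.1729 for Cldn5, -0.09593 for Mfsd2a, -0.05703 for Flt1, 0.5006 for Sele, 0.03146 for Lcn2, -0.1904 for Isg15, 0.3528 for Mki67, 0.1139 for Ezh2 and -0.09842 for Klf2. No low-count filter gave 0.003291 for Ocln. DESeq2-type size factors in edgeR gave -0.1323 for Abcb1a, -0.09509 for Flt1, -0.04152 for Col4a1 and -0.09735 for Klf2. The DESeq2 test gave -0.1323 for Abcb1a, -0.09508 for Flt1, -0.04144 for Col4a1 and -0.09734 for Klf2. Limma-trend with a prior count of 1 gave -0.0005862 for Abcb1a. A mean of at least 10 CPM gave -0.0708 for Abcb1a, -0.03463 for Flt1 and -0.04322 for Klf2. The 6 MCAO libraries alone gave -0.09588 for Abcb1a, -0.062 for Flt1, -0.003766 for Col4a1 and -0.0647 for Klf2. The replicate block gave -0.000569 for Abcb1a, 0.6922 for Plvap and 0.226 for Mki67. The background covariate gave -0.006931 for Flt1, 1.045 for Mki67 and -0.04715 for Klf2. With 1 MCAO library left out, 32 of 420 values reversed, and the ranges were Cldn5 from -0.1605 to 0.6598, Ocln from -0.1922 to -0.03043, Mfsd2a from -0.04021 to 0.231, Abcb1a from -0.07213 to 0.07652, Plvap from -2.429 to 2.318, Kdr from -0.5692 to 0.04613, Flt1 from -0.05443 to 0.102, Esm1 from -1.441 to 3.804, Angpt2 from -0.5212 to 0.01802, Lef1 from -0.009986 to 0.3566, Axin2 from -0.5532 to 0.02547, Sele from -0.8666 to 0.4355, Lcn2 from -0.3464 to 0.1005, Ch25h from -0.1559 to 0.7846, Isg15 from -0.1854 to 0.7104, Col4a1 from -0.1305 to 0.2138, Mki67 from -1.726 to 1.622, Top2a from -0.06556 to 1.698, Hdac2 from -0.2475 to 0.09737, Ezh2 from -1.199 to -0.004397 and Klf2 from -0.0917 to 0.1188. The ranges of Ocln and Ezh2 stayed negative, and these genes reversed only under the other settings given above. With 3 libraries a side, differences of a single log2 unit may go uncalled at this spread.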

Other observations

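DESeq2 called 12 genes between the sides of MCAO mice (0.0774% of those tested), among them Scgb3a1, Adamts5, Atf3 and Cytl1. The higher genes besides Scgb3a1 were Aars2, the mitochondrial alanyl-tRNA synthetase, at 1.05, 2.05 and 2.41 CPM in the ipsilateral libraries against 0.17, 0.13 and 0.13 CPM in the contralateral libraries, Cdyl2, a chromodomain protein, at 2.99, 3.09 and 2.79 against 0.24, 0.27 and 0.47 CPM, and Nupr1, a stress-induced nuclear protein, at 2.23, 3.68 and 6.29 against 0.48, 0.89 and 0.43 CPM. None of these overlapped between the sides, and their DESeq2 adjusted p-values were 0.00492, 0.0104 and 0.0188, against 0.974 for each with edgeR. The lower genes included Syn2, a synaptic vesicle protein of neurons, at 0.73, 0.07 and 1.19 against 5.8, 5.32 and 6.49 CPM, and Evc, a ciliary protein, at 0.23, 0.18 and 0.14 against 1.59, 1.91 and 1.38 CPM. Ermn, a protein of myelinating oligodendrocytes, was at 0 in all 3 ipsilateral libraries and at 0.66, 2.97 and 0.04 CPM on the opposite side. Faim2, an inhibitor of apoptosis known from neurons, was at 0, 0.05 and 0.12 against 11.2, 2.13 and 0.04 CPM, so the sides overlapped.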
